A study of Mus musculus with 6 samples.

Results

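The short introns of mouse VGB6 cells, a line of embryonic stem (ES) cells, were described at lengths from 100 to under 300 bases. The members were all introns of autosomes in this length range that had at least 20 reads, unspliced and spliced together, in every library. This rule took 13207 of the 219945 introns listed in the deposited tables, which was 13.8% of the 95371 introns of all lengths and chromosomes that had as many reads. A further 12153 autosomal introns of the same lengths had too few reads. Of the members, 13110 lay in 5098 named genes and 12887 in protein-coding genes, and their median length was 175 bases.

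The study compared wild-type ES cells with ZRSR2 knockout ES cells of the same line, with 3 polyA-selected RNA libraries in each group, numbered 2, 3 and 5. No other allele, agent or age is given in the labels, and they do not say how the knockout was made, whether it is 1 clone or whether the libraries came from separate cultures. P-values therefore measure only the spread between these libraries, which may be technical. The measure was the MSI, a percent of unspliced reads in which each spliced read counts 2 times. It was computed as 100 times the reads at both exon-intron boundaries, divided by those reads plus 2 times the reads spliced across the intron.

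ZRSR2 is a protein of the minor spliceosome, the machine that removes the rare U12-type introns, and it recognises their 3' splice site. The major spliceosome removes all other introns, and a short intron can be recognised by it across the intron as 1 unit. An intron that stays in a polyadenylated RNA often holds that RNA in the nucleus or leads to its decay, and in some genes this is used to set the level of the protein.

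The sequences of 25 members lay whole inside RefSeq promoter windows of GRCm38.p6 (the mm10 assembly), and all coordinates here are of that build. The windows cover gene starts only, so these are no sample of all members. Of them, 5 are shown because they run from low to high MSI, and all 5 begin with GT and end in AG. The bases that follow the GT differ between them, and whether these go with the MSI was not tested. The first 6 and the last 3 bases are in capitals.
Rhbdd3, chr11:5099567-5099747, plus strand: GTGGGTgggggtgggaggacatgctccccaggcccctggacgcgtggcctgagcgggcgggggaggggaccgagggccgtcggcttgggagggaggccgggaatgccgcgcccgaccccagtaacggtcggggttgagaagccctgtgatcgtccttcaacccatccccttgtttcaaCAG
Htatip2, chr7:49759312-49759541, plus strand: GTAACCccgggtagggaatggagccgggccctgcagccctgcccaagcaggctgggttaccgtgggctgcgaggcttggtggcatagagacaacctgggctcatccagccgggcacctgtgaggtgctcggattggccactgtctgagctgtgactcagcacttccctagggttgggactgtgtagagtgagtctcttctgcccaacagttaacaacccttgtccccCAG
Aamp, chr1:74280938-74281088, minus strand: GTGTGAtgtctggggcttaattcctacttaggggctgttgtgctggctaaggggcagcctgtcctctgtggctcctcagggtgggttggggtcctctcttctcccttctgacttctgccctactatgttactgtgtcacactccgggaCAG
Rps27, chr3:90213494-90213609, minus strand: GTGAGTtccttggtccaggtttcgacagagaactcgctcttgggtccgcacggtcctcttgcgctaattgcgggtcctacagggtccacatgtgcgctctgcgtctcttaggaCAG
Rps13, chr7:116333949-116334084, minus strand: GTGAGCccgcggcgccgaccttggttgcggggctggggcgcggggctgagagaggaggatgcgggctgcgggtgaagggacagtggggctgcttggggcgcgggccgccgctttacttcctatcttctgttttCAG

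The MSI of the Rhbdd3 intron, the first of a gene for a rhomboid-like membrane protein, stood at 30.3%, 26.8% and 17.7% in wild type and 26.7%, 32.5% and 26.3% in knockout. The first intron of Htatip2, which encodes an oxidoreductase-like protein, had 18.3%, 17.2% and 18.7% in wild type and 17.3%, 22.7% and 13.6% in knockout. Both were above 10% in every library, and the groups overlapped. Reads at each end of these introns are not given here, so the values do not show that the whole intron was retained. The internal intron of Aamp, a WD-repeat protein of cell migration, had 4.65%, 5.92% and 4.14% in wild type and 4.31%, 6.29% and 5.19% in knockout. The first introns of Rps27 and Rps13, proteins of the small ribosomal subunit, lay under 1% in all 6 libraries, at 0.465% to 0.889% and 0.227% to 0.487%. The GC content was 69.6% in the intron of Rhbdd3, 61.3% in Htatip2, 56.3% in Aamp, 57.8% in Rps27 and 69.1% in Rps13. Whether base composition goes with the MSI of short introns was not tested.

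The 5' splice site was covered by a window in 98 members, of which 96 began with GT, 1 with GC and 1 with AT. The 3' site was covered in 42 members and ended in AG in all 42. The letters ATATCCTT or GTATCCTT, which mark U12-type introns, were searched at the 5' site of the intron strand, with at most 1 mismatch after the first letter. They were found in 1 of 98 members, 1.02%, and in 1 of 955 introns of other lengths with a covered site, 0.105%. The branch point letters TTCCTTAAC or TTCCTTGAC, with at most 2 mismatches in the 40 bases before the 3' end, matched 8 of 42 members, 19.05%, and 21.9% of 265 other introns. A match so loose is common and describes letters only. Both members that did not begin with GT are shown here, from 3 exon bases (lower case) into the intron (capitals).
Ciao2b, chr8:104641391-104641548, minus strand: tcgATATCCGT
Ccdc40, chr11:119253420-119253619, plus strand: aagGCCAGTAC

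The Ciao2b intron, in a gene of cytosolic iron-sulfur protein assembly, is the member with the U12-type letters, with 1 mismatch. Its MSI stood at 3.47%, 3.38% and 3.31% in wild type and 3.89%, 6.14% and 4.11% in knockout, from 487 to 1913 spliced reads. Each knockout library lay above each wild-type library, but the log2 odds of 0.46 (SE 0.28) did not pass the test (edgeR adjusted p = 1). The GC-starting intron of Ccdc40, a gene of cilium assembly, had 23.8%, 20.6% and 19.4% in wild type and 23.2%, 24.3% and 20.8% in knockout, and the groups overlapped. No genome was used here, so the splice sites of the other members, the 5 that changed included, are not described.

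MicroRNA hairpins lay on the same strand inside 4 members, and 2 of them are shown because their host introns were far apart in MSI. The RefSeq mature sequences are given with the seed, bases 2 to 8, in capitals, and all 4 seeds differ.
mmu-miR-3091-5p: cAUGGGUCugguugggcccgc
mmu-miR-3091-3p: cGGGCCUGaccagucucaagac
mmu-miR-677-5p: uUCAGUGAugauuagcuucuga
mmu-miR-677-3p: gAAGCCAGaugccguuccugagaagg

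The hairpin of Mir3091 takes up 76 of the 173 bases of the first intron of Rps21 (chr2:180257448-180257620) and ends 9 bases before the 3' splice site. The MSI of that intron stood at 17.6%, 17.9% and 15.4% in wild type and 18.3%, 18.3% and 18.4% in knockout, far above the median of 0.640% over the 102 members in ribosomal protein genes. Nearly all of its unspliced reads were at the 3' end, 1791 of 1797 in wild type replicate 5. The 5' end had 0, 5 and 6 in wild type and 10, 7 and 13 in knockout. The high MSI thus rests on 1 end and does not show that the whole intron was retained. The hairpin of Mir677 lies in an internal intron of Atp5b, a subunit of the mitochondrial ATP synthase (chr10:128085213-128085441), with 0.754%, 0.418% and 0.377% in wild type and 0.404%, 0.699% and 0.896% in knockout. The groups of Rps21 stood apart, those of Atp5b overlapped, and neither intron passed the test (adjusted p = 1 for both, edgeR).

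The libraries held between 19801687 and 63623214 spliced reads, of which the members took 18.2% to 19.3%. The median member had 91 to 305 reads per library, of which a median of only 3 to 9 were unspliced, so the MSI of a single weakly retained intron in 1 library rests on few reads. Spliced reads of Zrsr2 itself numbered 660, 2190 and 2129 in wild type and 33, 12 and 0 in knockout. The deepest libraries were wild type replicate 5 and knockout replicate 2, and the shallowest was wild type replicate 2.

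Most short introns were spliced out of nearly all reads. The wild-type MSI, as the mean of 3 libraries, had a median of 1.46% over the members, with quartiles of 0.420% and 3.42%, and 5400 members (40.9%) lay under 1%. At the other end, 818 members (6.19%) in 603 genes reached 10% or more and 40 reached 50% or more. With at least 100 reads in every library, 239 members had a wild-type MSI of 10% or more, and 147 were at or above 10% in each of the 6 libraries. No unspliced read at all was seen in 476 members, which at their median depth of 465.5 spliced reads allows an MSI of up to 0.321% (3 reads, counting error only).

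The most retained members with at least 100 reads in every library were in genes of unlike function. The last intron of Sdr39u1, a short-chain dehydrogenase, had an MSI of 77.6%, 51.3% and 70.5% in wild type and 66.8%, 45.9% and 46.0% in knockout. An internal intron of Meg3, an imprinted noncoding RNA, had 61.0%, 55.8% and 59.9% in wild type and 52.4%, 61.1% and 64.9% in knockout. The last intron of Clspn, whose product claspin relays the replication checkpoint signal, had 53.7%, 49.3% and 57.4% in wild type and 58.8%, 59.5% and 66.6% in knockout. In Sdr39u1 and Meg3 the groups overlapped, and in Clspn every knockout library lay above every wild-type library, with a log2 odds of 0.47 (SE 0.32) that did not pass (adjusted p = 1).

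The next 5 were introns of Cyb5r1, Zfp692, Gigyf1, Csf2ra and Pusl1, a cytochrome b5 reductase, a zinc finger protein, a repressor of translation, a cytokine receptor chain and a pseudouridine synthase-like protein. Their wild-type means ran from 41.7% (SD 2.98) in Pusl1 to 46.2% (SD 3.77) in Cyb5r1, and their knockout means from 44.0% (SD 0.404) to 51.6% (SD 4.81), with n = 3 each. None of the 8 passed the test. The unspliced reads of these introns were at both ends, for example 863 at the 5' end and 650 at the 3' end of the Meg3 intron in wild type replicate 5.

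The members with most spliced reads lay at the low end. The last intron of Ptma, which encodes the abundant nuclear protein prothymosin alpha, had 25858 to 101060 spliced reads. Its MSI was 0.201% to 0.271% in wild type and 0.248% to 0.278% in knockout. An internal intron of Gapdh, an enzyme of glycolysis, had 0.258% to 0.451% and 0.298% to 0.523%, and one of Npm1, a nucleolar chaperone, had 0.0612% to 0.125% and 0.0637% to 0.154%. The groups overlapped in all 3. Over all members, pooled MSI in wild type went from 4.80% (SD 0.249) in the 3302 members with fewest spliced reads to 1.40% (SD 0.111) in the 3302 with most, and in knockout from 5.07% (SD 0.303) to 1.49% (SD 0.181). Spliced reads enter the MSI itself, so this order is a description.

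Pooled over all members, MSI came to 1.76%, 1.87% and 1.65% in wild type and 1.68%, 2.09% and 1.82% in knockout, or 1.76% (SD 0.113, n = 3) against 1.86% (SD 0.206, n = 3). The median over members stood at 1.37%, 1.45% and 1.35% in wild type and 1.28%, 1.59% and 1.42% in knockout. The share of members at 10% or more stood at 6.57%, 7.02% and 5.84% in wild type and 5.87%, 7.93% and 6.52% in knockout. The groups overlapped in all 3 measures, and knockout replicate 3 was the highest library and knockout replicate 2 among the lowest. Without knockout replicate 3 the difference in pooled MSI turned from 0.103 to -0.0101 percentage points, so no direction can be given.

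In every library the short introns as a pool were more retained than other autosomal introns. Pooled MSI of the 79411 introns of other lengths came to 1.66%, 1.66% and 1.57% in wild type and 1.498%, 1.80% and 1.66% in knockout. The log2 ratio of short to other introns came to 0.08, 0.18 and 0.07 in wild type and 0.17, 0.21 and 0.13 in knockout, above 0 in 6 of 6 libraries (mean 0.14, SD 0.06, two-sided exact sign-flip p = 0.031, the smallest that 6 libraries allow, 0.0339 adjusted over 13 such ratios). The sets of introns are fixed, so this p and those of the other ratios measure only how far the 6 libraries agree. The ratio overlapped between the genotypes. The difference in median MSI was wider, at 1.39% (SD 0.0541) for short and 0.928% (SD 0.00589) for other introns in wild type.

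The pooled MSI followed intron length only in part. Introns under 100 bases were at 1.94% (SD 0.152) in wild type, and the short introns lay below them in 6 of 6 libraries (mean log2 ratio -0.16, SD 0.03). Within the short introns, pooled MSI was 1.62% (SD 0.102) at 100 to under 150 bases, 1.92% (SD 0.131) up to 200, 1.74% (SD 0.104) up to 250 and 1.88% (SD 0.124) up to 300, so it did not move in 1 direction with length. Beyond them it was 1.65% (SD 0.0472) at 300 to under 1000 bases, 1.55% (SD 0.0471) at 1000 to under 10000 and 1.40% (SD 0.108) at 10000 or more. At the limits of the rule, the introns within 5 bases below 100 had 1.35% and those within 5 above 1.54%, and those within 5 bases below 300 had 1.75% and those within 5 above 1.91%. Introns whose shallowest library held 15 to 19 reads had a wild-type pooled MSI of 3.57%, and those at 20 to 24 reads had 3.64%.

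**Figure D1:**
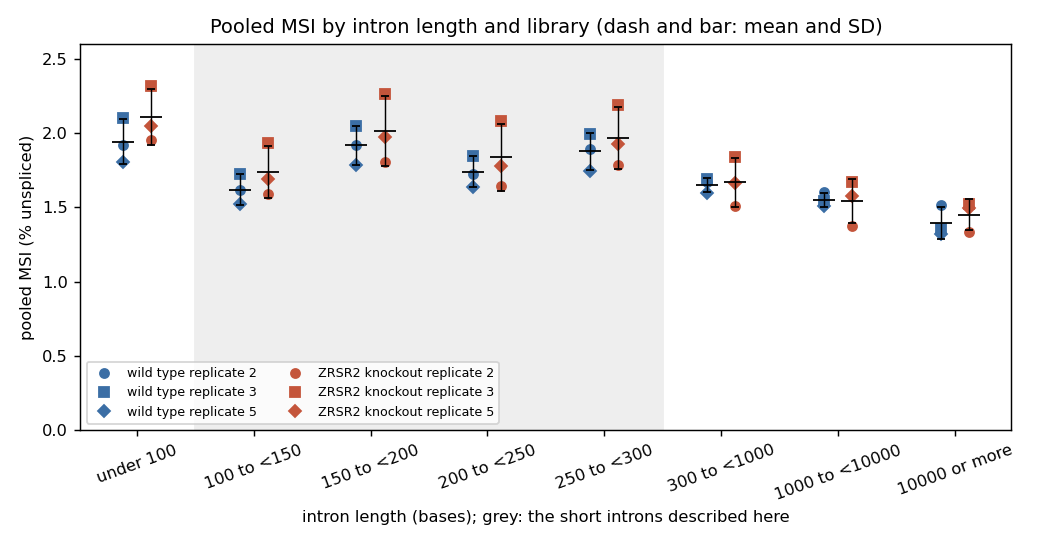
Pooled MSI in percent (vertical axis, from 0) by intron length in bases (horizontal axis), with 1 point per library, wild type blue and ZRSR2 knockout red, dash and bar giving mean and SD of 3 libraries. The 4 grey classes are the short introns, at 1.62% to 1.92% in wild type, between 1.94% under 100 bases and 1.40% at 10000 bases or more.

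Within genes the picture depended on the weighting. In the genes that held both kinds, short introns pooled were above introns of 300 bases or more in 6 of 6 libraries (mean log2 ratio 0.11, SD 0.06), where genes with many reads count most. Gene by gene, the median log2 ratio over 4824 genes was the other way, at -0.20 (SD 0.05, below 0 in 6 of 6 libraries), and the short introns were the higher ones in 41.9% to 46.0% of genes. Both have an exact sign-flip p of 0.031, so no direction within genes is drawn. The median adds 0.5 to each count, and the part of that in its sign was not tested.

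First introns had the highest pooled MSI by position. These values were not split by end, so they do not show that whole introns were retained. In the first introns of Rps21 and Srsf2 nearly all unspliced reads were at the 3' end, while that of Cyb5r1 had reads at both ends. The 571 members that were first introns had a pooled MSI of 2.26% (SD 0.220) in wild type and 2.53% (SD 0.314) in knockout, against 1.76% (SD 0.115) and 1.86% (SD 0.204) in 10987 internal members. First introns lay above internal ones in 6 of 6 libraries (mean log2 ratio 0.40, SD 0.07, exact sign-flip p = 0.031). The 1282 last introns lay below internal ones when pooled, in 6 of 6 libraries (mean log2 ratio -0.22, SD 0.04, exact sign-flip p = 0.031), while their median MSI of 1.58% (SD 0.0591) lay above the 1.34% (SD 0.0613) of internal introns in wild type. The share at 10% or more was 13.2% (SD 1.24) in first, 5.75% (SD 0.595) in internal and 7.85% (SD 0.750) in last introns.

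The 1025 members that overlapped another listed intron of the same strand were higher than the rest (mean log2 ratio 0.16, SD 0.04, 6 of 6 libraries). A length that is a multiple of 3, which would keep the reading frame past the intron, made no detectable difference, with a mean log2 ratio of 0.01 (SD 0.01), above 0 in 3 of 6 libraries (exact sign-flip p = 0.3125). Of the unspliced reads of short introns, 56.9% to 58.2% were at the 3' end, as were 58.6% to 60.4% of those of other introns, with overlapping genotypes in both. Reads at 1 end only were common. Of 7360 members with at least 30 unspliced reads, 918 (12.5%) had at least 90% of them at the 3' end and 342 (4.65%) at the 5' end, against 16.9% and 7.30% of 42439 introns of all lengths.

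The test of each intron between genotypes asked whether the ratio of unspliced to spliced reads changed. It passed the threshold (edgeR quasi-likelihood interaction, Benjamini-Hochberg adjusted p under 0.05 over all 95371 introns) in 5 of 13207 members, 0.0379%, where 0.0273% of all tested introns passed. Retention rose in knockout in 4 of them, against a background of 0.022%, and fell in 1, against 0.00524%. The 4 rises were in Pola2, Vps16, Erbb3 and Rpl35, and the fall was in Myl6b. At an unadjusted p under 0.05 there were 287 members higher (background 2.03%) and 249 lower (background 2.11%), together 4.06% against 4.14%. MSI was higher in every knockout than in every wild-type library in 593 members (4.49%, background 3.9%) and lower in 478 (3.62%, background 4.01%), where 7.91% of all tested introns did not overlap in either direction. The median log2 odds was 0.05 over the members and 0.02 over all introns, and limma and DESeq2 called none, with 531 and 177 members at an unadjusted p under 0.05.

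**Figure D2:**
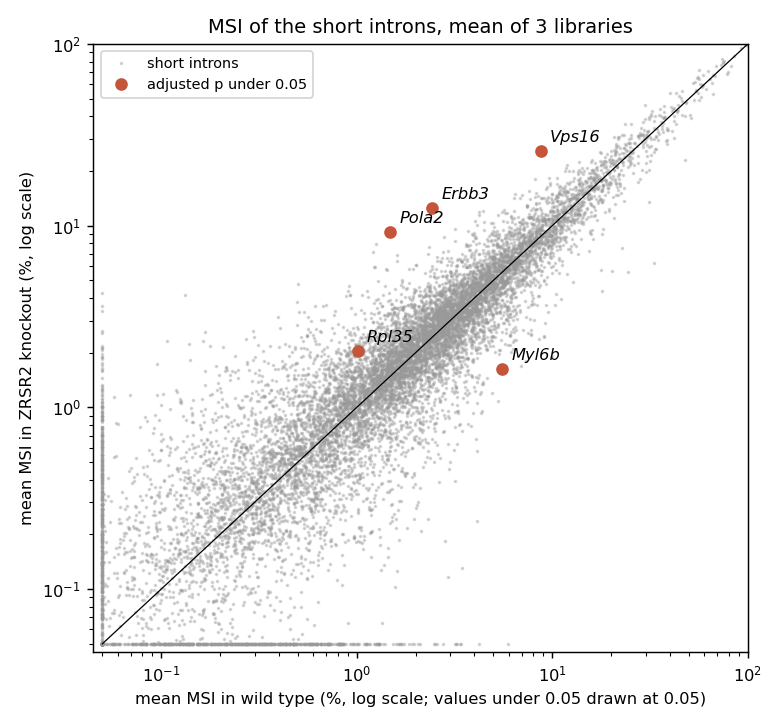
Mean MSI of each of the 13207 short introns in wild type (horizontal) and ZRSR2 knockout (vertical), in percent on log axes, with the diagonal marking equal values and red points the 5 members past the threshold. Most members lie along the diagonal, and Pola2 (1.48% against 9.18%) and Vps16 (8.74% against 25.7%) lie far above it.

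The clearest rise was in an internal intron of Pola2, which encodes the B subunit of the DNA polymerase alpha-primase complex that starts DNA strands (chr19:5958876-5959032, minus strand, 157 bases). Its MSI stood at 1.30%, 1.94% and 1.22% in wild type and 8.55%, 12.7% and 6.24% in knockout. Every knockout library lay above every wild-type library. Unspliced reads numbered 6, 27 and 20 in wild type and 124, 92 and 59 in knockout, beside 228 to 812 and 315 to 663 spliced reads. The log2 odds was 2.67 (SE 0.35, adjusted p = 1.05e-09), and the intron passed in all 6 fits that left out a library.

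Reads at both ends of the Pola2 intron moved together. In wild type there were 3, 13 and 13 unspliced reads at its 5' end and 3, 14 and 7 at its 3' end, and in knockout 71, 44 and 31 and 53, 48 and 28. The other 17 measured introns of Pola2, 2 of them short, had log2 odds from -1.48 to 1.49, and none passed. The next intron had 0.513% to 1.66% in wild type and 0.429% to 1.65% in knockout. Spliced reads of the whole gene did not change detectably (log2 fold change 0.09, adjusted p = 0.710).

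The second was an internal intron of Vps16, a core subunit of the HOPS and CORVET complexes that tether membranes to endosomes and lysosomes (chr2:130440580-130440706, plus strand, 127 bases). Its MSI stood at 8.20%, 11.1% and 6.89% in wild type and 25.1%, 29.0% and 23.0% in knockout, with no overlap. Unspliced reads numbered 20, 80 and 57 in wild type and 167, 90 and 96 in knockout, beside 112, 319 and 385 and 249, 110 and 161 spliced reads. There were 9, 35 and 26 reads in wild type and 72, 26 and 44 in knockout at the 5' end, and 11, 45 and 31 and 95, 64 and 52 at the 3' end. Relative to the spliced reads, each end was higher in every knockout than in every wild-type library. The log2 odds was 1.85 (SE 0.35, adjusted p = 0.00119), and without wild type replicate 5 it was 1.64 and did not pass (adjusted p = 0.462).

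Of the 22 other measured introns of Vps16, 18 had a log2 odds above 0 and 4 an unadjusted p under 0.05, with a median of 0.45, and none passed. Of the 17 in Pola2 these were 6 and 2, with a median of -0.16, and over all tested introns 51.5% and 4.14%. The difference between the genes was not tested. Among its short introns, the one of 140 bases had 3.36%, 7.21% and 6.08% in wild type and 11.5%, 14.8% and 9.59% in knockout (log2 odds 1.11, adjusted p = 1). The one of 156 bases had 4.72%, 10.6% and 3.88% in wild type and 12.5%, 12.3% and 11.4% in knockout (log2 odds 1.04, adjusted p = 1). The one of 117 bases was lower in knockout without overlap, with a log2 odds of -0.80. It had 4.29%, 3.20% and 4.05% in wild type and 2.12%, 2.13% and 2.31% in knockout. The intron of 89 bases just before the called one, too short to be a member, was already at 17.9%, 22.2% and 12.6% in wild type and stood at 24.6%, 29.97% and 23.9% in knockout. The 157-base intron just after it had 1.01% to 1.79% and 0.709% to 1.68%, with overlapping groups. The level of the gene itself had a log2 fold change of -0.24 (adjusted p = 0.485).

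**Figure D3:**
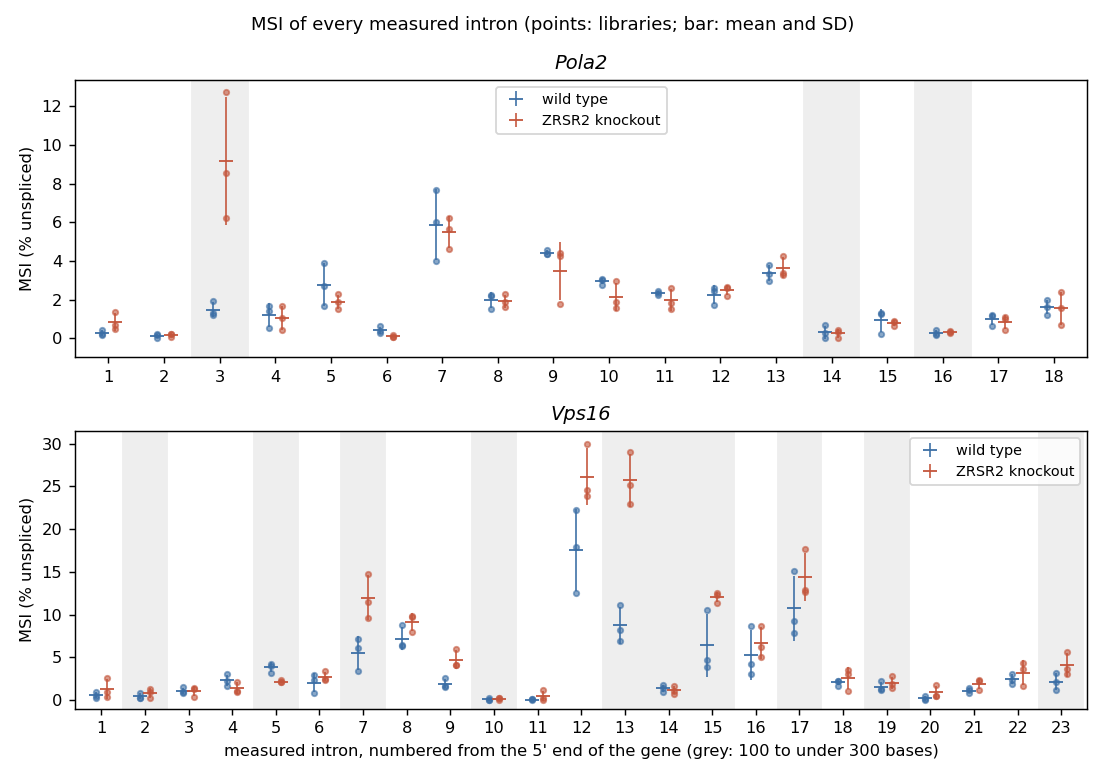
MSI in percent (vertical) of every measured intron of Pola2 (upper) and Vps16 (lower), numbered from the 5' end of the gene (horizontal), with points for libraries, dash and bar for mean and SD, wild type blue, ZRSR2 knockout red and short introns grey. In Pola2 the groups stand far apart at 1 intron, and in Vps16 the called intron has neighbours that are also high, such as the 89-base intron at 17.5% and 26.2%.

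The other 2 rises came from 1 end of the intron. The last intron of Erbb3, a receptor of the epidermal growth factor receptor family (chr10:128569895-128570053, minus strand, 159 bases), had an MSI of 3.03%, 0.870% and 3.41% in wild type and 18.6%, 15.8% and 3.23% in knockout. The groups overlapped, since knockout replicate 5 lay within the wild-type range. Unspliced reads at its 5' end numbered 2, 1 and 9 in wild type and 94, 29 and 2 in knockout, but at its 3' end only 1, 1 and 2 and 2, 0 and 2. The log2 odds was 2.61 (SE 0.57, adjusted p = 0.0256), from the 3' end alone it was -0.12, and the intron passed in 1 of 6 fits that left out a library. Spliced reads of this intron were 210 in knockout replicate 2, where the intron before it had 103.

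The first intron of Rpl35, a protein of the large ribosomal subunit (chr2:39004869-39005083, minus strand, 215 bases), had 0.933%, 1.61% and 0.487% in wild type and 1.82%, 2.68% and 1.65% in knockout. The groups did not overlap, by a small margin. Its unspliced reads were almost all at the 3' end, at 46, 224 and 79 in wild type and 307, 189 and 148 in knockout, with 0, 1 and 2 and 4, 1 and 1 at the 5' end. Its spliced reads, 2442 to 8270 in wild type, were fewer than the 10519 to 32676 of the next intron. The log2 odds was 1.12 (SE 0.26, adjusted p = 0.0471), and the intron passed in 2 of 6 fits that left out a library. Copies of ribosomal protein genes may share reads with it in ways the sources do not state.

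The fall was in the last intron of Myl6b, a myosin light chain (chr10:128494484-128494589, minus strand, 106 bases), with 6.98%, 4.45% and 5.18% in wild type and 2.54%, 2.16% and 0.189% in knockout. Unspliced reads were few, at 6, 11 and 13 in wild type and 6, 3 and 3 in knockout. Spliced reads were 40, 118 and 119 in wild type and 115, 68 and 793 in knockout, so replicate 5 stood apart. In that library the 3 last introns of the gene had 783, 796 and 793 spliced reads and the 3 before them 51, 62 and 65. The log2 odds was -2.84 (SE 0.64, adjusted p = 0.0347), and without knockout replicate 5 it was -1.16 (adjusted p = 1). None of the 5 host genes passed the test of gene level.

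**Figure D4:**
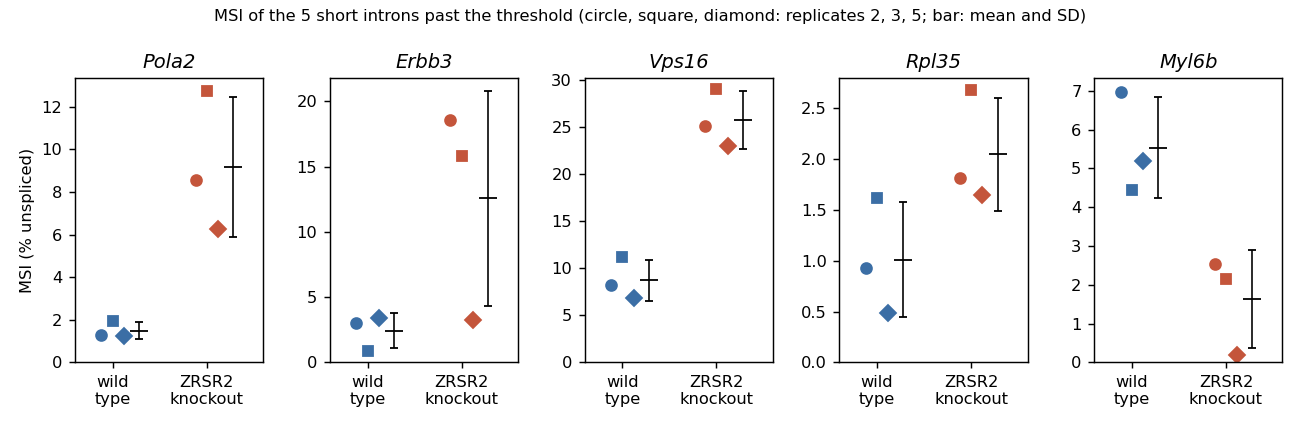
MSI in percent (vertical, from 0, own scale for each panel) of the 5 short introns past the threshold in the 3 wild-type (blue) and 3 ZRSR2 knockout (red) libraries, with circle, square and diamond for replicates 2, 3 and 5 and a bar for mean and SD. The groups are apart in Pola2, Vps16, Rpl35 and Myl6b, and in Erbb3 knockout replicate 5, at 3.23%, lies among the wild-type libraries.

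**Figure D5:**
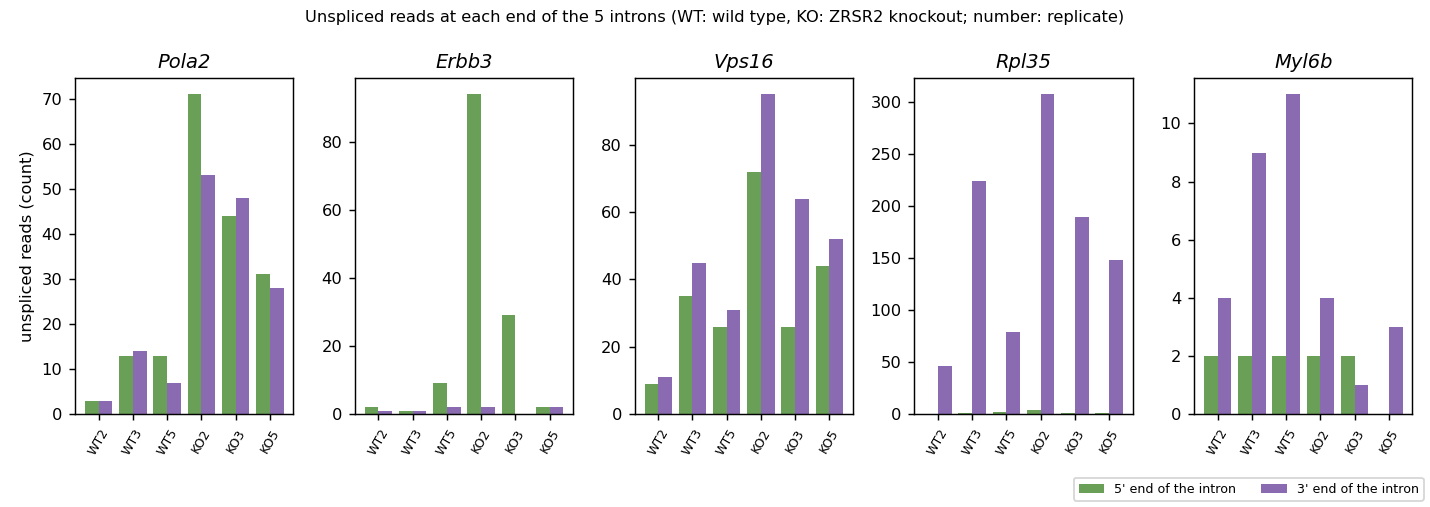
Unspliced reads (count, from 0, own scale for each panel) at the 5' end (green) and 3' end (purple) of the same 5 introns in each library. Both ends are filled in Pola2 and Vps16, while in knockout replicate 2 Erbb3 has 94 reads at the 5' end and 2 at the 3' end, and Rpl35 has 4 and 307.

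A rise at both ends was also counted over all members with at least 30 unspliced reads. Each end on its own was higher in every knockout than in every wild-type library in 42 of 7360 members, 0.571%, where the share over all lengths was 0.379%. It was lower in 22, 0.299%, where it was 0.408% over all lengths. The 42 include the called introns of Pola2 and Vps16 and the 140-base intron of Vps16. This count was added after the ends of the called introns had been seen, and of the 42 only those called in Pola2 and Vps16 passed the test.

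Members that did not pass but had an unadjusted p under 0.05, at least 30 unspliced reads and no overlap between the groups numbered 85 higher and 53 lower. That was 1.15% and 0.720% of the 7360 members with as many unspliced reads, where the same rule took 0.976% and 1.18% of introns of all lengths. The largest log2 odds among the higher ones were 2.15 in Tkfc (triokinase), 1.86 in Rasgrp4 (an exchange factor for RAS), 1.80 in Dgcr8 (partner of Drosha in microRNA processing), 1.71 in Ktn1 (kinectin), 1.67 in Slc4a2 (an anion exchanger) and 1.64 in Cyp4f16 (a cytochrome P450). Mean MSI went from 1.26% (SD 1.24) to 7.92% (SD 6.46) in Tkfc and from 0.744% (SD 0.340) to 2.72% (SD 0.459) in Dgcr8. In Dgcr8 and Ktn1 the unspliced reads were nearly all at the 3' end. The 5' end of Dgcr8 had 0, 0 and 2 reads in wild type and 0, 0 and 0 in knockout. That of Ktn1 had 1, 0 and 2 in wild type and 1, 0 and 0 in knockout. From the 5' end alone their log2 odds were -2.63 and -1.04 (edgeR unadjusted p = 0.175 and 0.488). So few reads give no direction.

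Among the lower ones the log2 odds was -2.97 in Gm16008, a predicted gene, -2.39 in Pomt2 (a protein O-mannosyltransferase) and -2.10 in H2-Q7, of the major histocompatibility complex. Mean MSI was 33.3% (SD 8.31) in wild type and 6.21% (SD 6.15) in knockout in Gm16008. H2-Q7 has near-identical copies, so its reads are uncertain. Smaller ones were in Zfp936, Scrn2, Pcif1, Abca7 and Lztr1, an adaptor for the degradation of RAS proteins, at -1.90 to -1.75. None of these had an adjusted p below 0.164.

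Gene lists, 16 in all, gave the members by function. They were chosen with earlier results of these data known, so a call within a list is no independent support. Over all tested introns 51.5% had a log2 odds above 0 and 0.0273% passed, for comparison with the counts in each list. In 25 of 44 genes known for a U12-type intron there were 68 short introns, of which 41 were higher, 27 lower and 2 passed, those of Pola2 and Vps16. Their pooled MSI stood at 1.79%, 2.03% and 1.83% in wild type and 2.13%, 2.63% and 2.12% in knockout, without overlap, and their median log2 odds was 0.16. That pool includes both called introns, and no value without them is given here. The list names genes, each of which usually has a single U12-type intron among many others. In 7 genes of HOPS and CORVET tethering, 28 members had a pooled MSI of 2.94%, 4.23% and 3.34% in wild type and 5.18%, 5.81% and 5.24% in knockout. Of these members 17 were higher (all tested introns: 51.5%) and 1, in Vps16, passed (all tested introns: 0.0273%). Of the 28 members, 10 were introns of Vps16, the called one among them. A value without Vps16 is not given here, so a shift in the other genes is not shown.

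In 59 cytosolic ribosomal protein genes, 86 of 102 members had a log2 odds above 0 (all tested introns: 51.5%), with a median of 0.19, and 1 passed. Their pooled MSI nevertheless overlapped, at 0.901%, 1.06% and 0.825% in wild type and 0.903%, 1.21% and 1.04% in knockout. In DNA replication genes 61 of 90 were higher and 1, in Pola2, passed, with pooled MSI of 1.25% (SD 0.0641) and 1.40% (SD 0.145). Of 131 members in chromatin and DNA methylation genes 78 were lower, with a median log2 odds of -0.09, and none passed.

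Members in snoRNA host genes, whose introns carry small nucleolar RNAs, had the highest median wild-type MSI of the lists, 5.73%, and 14 of 47 were at 10% or more. An example is an intron of Snhg1 with 28.1%, 26.2% and 20.3% in wild type and 24.05%, 21.2% and 19.6% in knockout. Among SR proteins and CLK kinases, regulators of splicing, the first intron of Srsf2 had 22.5%, 15.8% and 15.1% in wild type and 17.2%, 18.6% and 17.3% in knockout, with nearly all unspliced reads at the 3' end. In both introns the groups overlapped and neither passed.

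The 8 members in 5 genes of minor spliceosome proteins had a pooled MSI of 3.77% (SD 0.316) and 3.83% (SD 0.151), with 5 higher and none past the threshold. For the 96 in major spliceosome genes it was 1.13% (SD 0.0528) and 1.22% (SD 0.128), with 55 higher. For the 41 in glycolysis genes it was 0.942% (SD 0.0610) and 1.05% (SD 0.0798), with 25 higher. Oxidative phosphorylation, proteasome, RNA polymerase and TFIID, aminoacyl-tRNA synthetase, nonsense-mediated decay and SR and CLK genes had from 34 of 66 to 23 of 40 members higher, medians of log2 odds from 0.00 to 0.12 and no call. Of the pluripotency factors only 5 genes held members, 6 in all, with 3 higher and 3 lower. The groups of pooled MSI overlapped in each list of this paragraph.

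The genes that hold short introns were also compared by level, as spliced reads summed per gene. Of 5097 such genes 1 passed, Cep170, a centrosome protein, where 0.0177% of 16950 genes did (edgeR). At an unadjusted p under 0.05 there were 616, of which 241 were higher and 375 lower in knockout, 12.1% against 9.94% of all genes. The shares by direction over all genes are not given here, so the split is a count only. Genes were not matched for their number of reads. DESeq2 called 85 of the 5097, 1.67%, where it called 1.3% of all 16950 genes.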

How the data were processed

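The labels give polyA-selected RNA and a TruSeq library kit for the 6 libraries, and no strand setting, aligner or read counter. The build mm10 is named in the submitters' processing notes. The libraries have a table each, over 1 shared set of introns, in which the authors deposited raw read counts (A1, A2, Exon), a fraction (CovFrac) and a percent (MSI), without defining these names. The deposited percent was matched by the formula of 100 × (A1 + A2) over (A1 + A2 + 2 × Exon), with a tolerance of 0.01, and A1 and A2 were read from that as boundary counts. In pairs of listed introns that share only the lower coordinate, A1 was equal in 16000 of 16000 comparisons with a read and A2 in 5.72%, and in pairs that share only the upper one A2 was equal in 16503 of 16503 and A1 in 6.29%. A1 was therefore taken as the boundary of lower coordinate, and 5' and 3' ends were assigned by strand. The deposited fraction entered no result.

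Introns with at least 20 reads in every library were tested with edgeR 4.0.16 (quasi-likelihood interaction of read kind with genotype, a term per library, library totals as offsets) in R 4.3.3. The p-values were adjusted by Benjamini-Hochberg over all 95371 introns, sex chromosomes included. Log2 odds compares the log2 ratio of unspliced over spliced reads in knockout with that in wild type (positive where knockout is higher), with standard errors from the F statistic. On simulated data for this comparison (30000 introns, 200 changed 4-fold) 58% were recovered and no unchanged intron was called. The simulation used introns of all lengths and a single assumed spread. Its changed introns all had more unspliced reads than the median short intron, which had 38 over the 6 libraries. Recovery at the depth of most short introns was therefore not measured. Gene levels used spliced reads summed per gene (TMM, filterByExpr). Values pooled within a library were compared by exact sign-flip tests. These compare fixed sets of introns in the same libraries, and other differences between the sets were not tested. Alternatives used limma 3.58.1, DESeq2 1.42.0, other filters, scalings, 1 boundary only and libraries left out. Genes come from RefSeq by position.

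The members and gene lists were chosen with earlier results of these data known. Genes were named by rule: members past the threshold; up to 10 per direction, filled with members of unadjusted p under 0.05, at least 30 unspliced reads and no overlap; the 8 of highest wild-type MSI with at least 100 reads in every library; the 3 with most spliced reads; and list members of highest MSI or smallest p. Members shown for their sequence or microRNA were named beside these. A member that the rule names is not reported here.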

Additional observations from a re-analysis of the deposited data

How the results depend on the processing

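The 5 calls in short introns were 5 with TMM factors and with separate totals for unspliced and spliced reads, 3 with the replicate block, 3 with at least 50 reads, 2 with no read minimum, 2 with at least 10 unspliced reads, 1 from A1 only, 2 from A2 only, and 0 with limma and with DESeq2 (smallest adjusted p over all introns 0.0549). Leaving out 1 library gave 1 to 5 calls, the fewest without wild type replicate 5. Pola2 passed under 14 of its 16 alternatives, Vps16 under 12 of 16, Rpl35 under 5 of 16, Erbb3 under 4 of 16 and Myl6b under 4 of 15. The log2 odds turned to -0.119 in Erbb3 from A1 only, to -2.63 in Dgcr8 from A2 only and to -1.04 in Ktn1 from A1 only. Each of these values rests on very few unspliced reads at that end and gives no direction. The cause was not tested, except that A1 or A2 alone leaves out 1 end.

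The knockout minus wild-type difference ranged from -0.0101 to 0.192 percentage points in pooled MSI, -0.0371 to 0.116 in median MSI and -0.283 to 0.747 in the share at 10% or more when 1 library was left out. Without wild type replicate 5 the share turned to -0.0240, and without knockout replicate 3 all 3 turned. The log2 ratio to other introns kept its direction, from 0.04 to 0.09. The count of called host genes was 1, 2 with all genes that had a read, 2 with the replicate block, 85 with DESeq2 and 0 to 19 when 1 library was left out, most without wild type replicate 3.

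Deviations of the unspliced to spliced ratio correlated at -0.03 to 0.03 between same-numbered libraries of the groups. These ratios rest on few unspliced reads, so a weak correlation cannot decide whether the replicate numbers pair the libraries. Deviations of the spliced read levels of members correlated at -0.028, 0.119 and -0.115 for replicates 2, 3 and 5. Between libraries of unlike number they ran from -0.162 to 0.195. Whether same-numbered libraries shared a batch or culture was not tested. The splice site classes were not run over all members, because no genome was used here. Depth limits single introns: the median member had 3 to 9 unspliced reads per library.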
